A study of Mus musculus with 48 samples.

Results

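The genes described here are 43 genes of the fibroblast extracellular matrix and cell surface, of 24012 genes in the deposited table of expression values. They were chosen by name, for what they encode, and each of the 43 was found in the table. By role they comprise 6 chains of fibrillar collagens (*Col1a1*, *Col1a2*, *Col3a1*, *Col5a1*, *Col5a2*, *Col11a1*), 9 chains of other collagens (*Col4a1*, *Col4a2*, *Col6a1*, *Col6a2*, *Col6a3*, *Col8a1*, *Col12a1*, *Col14a1*, *Col15a1*), 10 elastic fibre genes (*Eln*, *Fbn1*, *Fbn2*, *Fbln1*, *Fbln2*, *Fbln5*, *Efemp1*, *Efemp2*, *Mfap4*, *Mfap5*), 3 lysyl oxidases (*Lox*, *Loxl1*, *Loxl2*), 6 matrix glycoproteins (*Fn1*, *Sparc*, *Postn*, *Thbs1*, *Thbs2*, *Tnc*), 6 proteoglycans (*Dcn*, *Lum*, *Bgn*, *Fmod*, *Ogn*, *Vcan*) and 3 surface proteins (*Thy1*, *Pdgfra*, *Pdgfrb*).

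Fibroblasts secrete collagen chains as procollagens, which are hydroxylated, folded into triple helices, trimmed outside the cell and cross-linked by lysyl oxidases. Fibronectin, fibrillins, thrombospondins and small leucine-rich proteoglycans organise the fibres and hold growth factors such as TGF-beta. During the reprogramming of fibroblasts to induced pluripotent stem cells, the loss of surface THY1 and of mesenchymal genes is a known early step, and epithelial genes are switched on.

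Sequenced were poly(A) RNAs of uninduced mouse embryonic fibroblasts (MEFs) and of cells induced with doxycycline (1 µg/ml) for 3, 6, 9, 12 or 15 days, with 3 libraries in each of 16 groups. The MEFs came from mice that carry the reverse tetracycline transactivator M2rtTA at *Rosa26*, a doxycycline-dependent cassette of *Oct4*, *Sox2*, *Klf4* and *c-Myc* (OSKM) inserted at *Col1a1*, and an *Oct4*-GFP reporter; all groups share these alleles, and the cassette lies at the locus of a member gene. The 3 arms are Control OE (OSKM with an empty vector), *Mettl14* OE (OSKM with *Mettl14* overexpressed) and *Mettl3* OE (OSKM with *Mettl3* overexpressed), the last 2 being subunits of the writer complex of the RNA modification m6A. All cells of a culture were sequenced together, so that fewer cells of a type and less RNA per cell cannot be told apart.

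The promoters of *Col1a2* and *Col3a1* are shown as examples of collagen chains that were called lower in *Mettl3* OE, *Col1a2* on days 3 and 6 and *Col3a1* on day 9 (and on day 6 without the libraries numbered 1 of that day). Each window runs 300 bases, from 250 bases before to 50 bases after the annotated start, on the plus strand of GRCm38.p6 (RefSeq), 5′ to 3′. That build is not the mm9 build of the expression values. *Col1a2* lies at chr6:4505368-4505667 and *Col3a1* at chr1:45311288-45311587. In the first window capitals mark the motif GGGCGG at 2 places, then the motif CCAAT and last its reverse complement. In the second they mark the reverse complement of the motif GGAATG and then the motif TATAAA.
Col1a2: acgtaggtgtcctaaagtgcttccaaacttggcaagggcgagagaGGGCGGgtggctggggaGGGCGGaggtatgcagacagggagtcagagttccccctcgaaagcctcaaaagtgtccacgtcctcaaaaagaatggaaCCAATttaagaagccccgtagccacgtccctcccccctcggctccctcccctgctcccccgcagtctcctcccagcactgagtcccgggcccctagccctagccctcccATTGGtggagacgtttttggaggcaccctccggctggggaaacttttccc
Col3a1: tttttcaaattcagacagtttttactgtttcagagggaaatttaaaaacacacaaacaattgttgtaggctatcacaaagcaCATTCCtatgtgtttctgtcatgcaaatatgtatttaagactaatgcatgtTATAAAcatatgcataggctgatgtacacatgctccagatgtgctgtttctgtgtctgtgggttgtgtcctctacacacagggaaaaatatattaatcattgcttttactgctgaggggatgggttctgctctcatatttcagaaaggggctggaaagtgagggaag
Of the 43 members, 26 had a promoter window in the RefSeq table. Read on both strands, GGGCGG (the letters of a GC box) occurred in the windows of 16 of the 26 (61.5%), against 35.7% of all 32851 windows. CCAAT occurred in 9 (34.6%, against 37.4%), TATAAA in 5 (19.2%, against 13.6%), GGAATG, the letters of a TEAD site, in 3 (11.5%, against 14.7%) and TGANTCA, those of an AP-1 site, in 2 (7.7%, against 7.8%), with members counted once each. A member counted if any of its windows matched, while the shares of all windows are of single windows, so the units differ. By window, GGGCGG occurred in 20 of the 33 member windows, CCAAT in 9, TATAAA in 6, GGAATG in 3 and TGANTCA in 2. These matches describe letters in a window and nothing of binding.

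Values are FPKM, fragments per kilobase of transcript, scaled to the mapped fragments of the library. They lie in 3 tables placed side by side: MEFs with day 3, days 6 with 9, and days 12 with 15. The tables differ in scale, with median sums of 234441, 392245 and 432182 FPKM per library, so FPKM were tested only within a table. Across tables the percentile rank of a gene within its own library is given as a description, as are ratios of 2 genes in a library. A gene was called when its change, on the log2(FPKM + 1) scale of limma, exceeded a fold change of 1.5 at a Benjamini-Hochberg adjusted p under 0.05 over all genes tested. A gene entered a fit when 3 or more of its libraries reached 1 FPKM. Nothing states that the 3 libraries of a group are separate cultures, so p-values measure only the spread between these libraries.

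*Mettl14* lay at 184 to 476 FPKM in the *Mettl14* OE libraries and at 4.3 to 7.47 FPKM in all others, and *Mettl3* at 1080 to 2920 FPKM in the *Mettl3* OE libraries against 3.33 to 6.79 FPKM. As markers of the starting cells, *Thy1* and *Col1a1* were at 31.8 or more and 71.3 or more FPKM in every MEF library. Epithelial markers summed to 6.2 to 8.11 FPKM there, with 2 of 20 (*Tjp3* and *Rab25*) at 0 in each MEF library, 12 endothelial markers to at most 1.16 FPKM and 12 chondrocyte and bone markers to at most 7.4 FPKM. On day 6 the library numbered 1 stood high in each arm: it held the highest value of its group in 36 (Control OE), 39 (*Mettl14* OE) and 39 (*Mettl3* OE) of the 43 members, with a median deviation from the group mean of 0.231, 0.246 and 0.328 on the log2 scale. In Control OE on day 12, library 1 was highest in 39 members and library 2 in none. Calls and counts that the day 6 libraries numbered 1 changed are given with and without them, the latter by an alternative chosen after seeing the data.

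**Figure D1:**
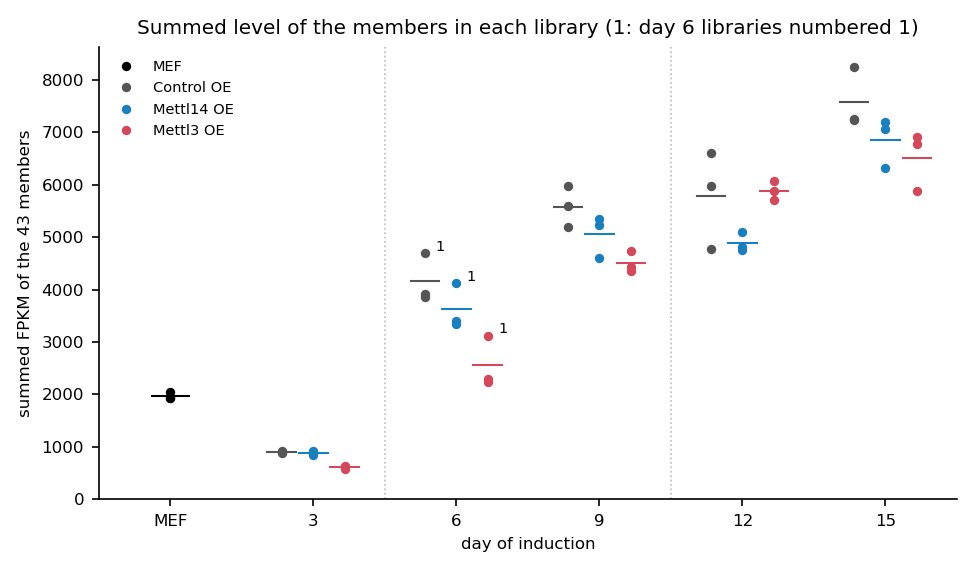
Summed FPKM of the 43 members (vertical axis, from 0) in each of 48 libraries by day of induction; points are libraries, bars are group means, dotted lines separate the 3 tables, and the day 6 libraries numbered 1 carry that number. Within day 3 and within day 6 the 3 *Mettl3* OE libraries (577.6 to 634.5 and 2233 to 3122 FPKM) lie below the 3 Control OE libraries (874.9 to 912.7 and 3860 to 4698 FPKM).

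The first step compared MEFs with Control OE cells on day 3, within a single table. Of 37 members tested, 29 fell and 2 rose, with a median log2 difference of -1.08 against 0.12 over all genes tested. Over all 10319 genes 8.53% were called lower and 15.4% higher. The remaining 6 members (*Col14a1*, *Col15a1*, *Eln*, *Mfap5*, *Fmod*, *Ogn*) were too low to be tested. All 3 surface proteins and all 3 lysyl oxidases fell, as did 5 of 6 fibrillar collagens, 5 of 6 glycoproteins, 5 of 7 other collagens tested, 5 of 8 elastic fibre genes and 3 of 4 proteoglycans. Of the 37 members, 30 were high enough to be tested in the day 3 libraries alone. *Col11a1*, *Fbln1*, *Mfap4*, *Postn*, *Lum*, *Pdgfra* and *Pdgfrb* entered this fit only through the MEF libraries, where their values were higher. All of these were called lower, a direction that the filter favoured, and they are part of the counts and the median.

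On the log2(FPKM + 1) scale, which understates the fall of genes that were low on day 3, the change was largest for *Tnc*, the matrix glycoprotein tenascin C. It stood at 370.3, 383 and 405 FPKM in the MEF libraries and at 19.3, 17.02 and 19.6 FPKM on day 3 (log2 difference -4.30, SE 0.075, limma adjusted p = 5.42e-14). *Lum*, which encodes the keratan sulfate proteoglycan lumican, went from 10.2, 9.42 and 10.8 FPKM to 0.182, 0.128 and 0.0544 FPKM, a log2 difference of -3.31. *Pdgfra*, a receptor for platelet-derived growth factor on mesenchymal cells, went from 16.5, 16.2 and 17.3 FPKM to 0.995, 0.915 and 0.691 FPKM (-3.25). Every day 3 library was below every MEF library in these 3 genes. *Thbs2* (-2.997), *Postn* (-2.92), *Thy1* (-2.75) and *Col6a2* (-2.67) followed on this scale. *Postn* lay at 7.54, 6.59 and 6.68 FPKM in MEFs and at 0.0623, 0.0407 and 0.0344 FPKM on day 3. In FPKM itself *Postn* and *Lum* thus fell by a larger factor than *Tnc*. *Mfap4*, a microfibril-associated protein, was listed at 0 in 2 of 3 Control OE libraries on day 3 and at 3.35, 3.42 and 3.93 FPKM in MEFs. It was called lower, but its fitted log2 difference of -2.13 depends on the pseudocount and is no bound on its fold change.

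*Efemp1* and *Fbln5*, fibulins that bind elastic fibres, went the other way. *Efemp1* lay at 3.77, 3.69 and 4.04 FPKM in MEFs and at 30.8, 36.04 and 34.3 FPKM on day 3, a log2 difference of 2.84 (SE 0.086, limma adjusted p = 9.86e-12). *Fbln5* lay at 2.59, 2.58 and 3.02 FPKM and then at 7.98, 7.11 and 7.87 FPKM (1.22). Day 3 libraries exceeded all MEF libraries in both genes. The 6 members tested but not called were *Col5a2*, *Col6a1*, *Col8a1*, *Fbn1*, *Sparc* and *Dcn*.

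**Figure D2:**
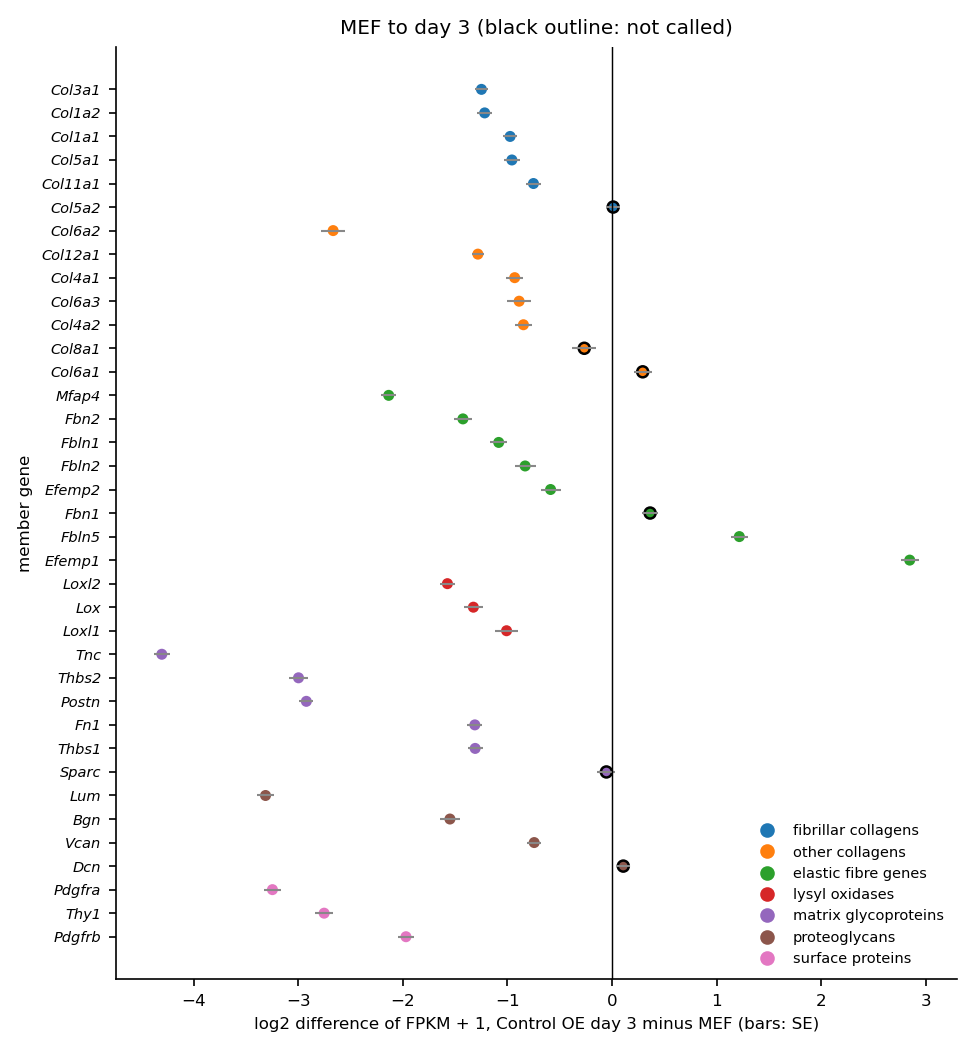
Log2 difference of FPKM + 1 (horizontal axis) between Control OE on day 3 and MEFs for the 37 members tested, grouped by role, with standard errors as bars; a black outline marks a member that was not called. *Tnc* lies farthest to the left at -4.30, and *Efemp1* (2.84) and *Fbln5* (1.22) are the 2 members called higher.

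Other gene lists were counted for the same step. Of 22 collagen processing and secretion genes tested, 8 fell and 2 rose: the procollagen peptidase gene *Adamts14* (log2 difference -1.87), *Creb3l1*, a transcription factor of collagen secretion (-1.72), and *P4ha1*, a prolyl hydroxylase subunit (-1.35), were among those that fell. TGF-beta and matrix-stored growth factor genes were mixed (6 of 17 fell, 3 rose), as were matrix receptors (4 of 13 fell, 3 rose) and basement membrane genes (4 of 13 fell, 5 rose). Of 5 epithelial markers tested, 4 rose, among them *Dsp* (4.46) and *Krt8* (4.34), and 1 fell. Of the 20 epithelial markers, 18 had a mean under 1 FPKM in MEFs and 15 in Control OE on day 3. Most of those tested thus entered through the day 3 libraries, and the filter favoured a rise. The epithelial sum went from between 6.2 and 8.11 FPKM to between 82.9 and 101 FPKM, and the smooth muscle and pericyte sum from between 203 and 217 FPKM to between 99.7 and 105 FPKM. The part of a change in cell composition in the members' fall was not tested.

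Across the whole time course the members were placed by rank among the 12739 genes that reached 1 FPKM in 3 or more of the 48 libraries. The median member stood at percentile 92.18 ± 0.02 (SD, n = 3) in MEFs and at 73.13 ± 0.99 on day 3 of Control OE. It then stood at 91.85 ± 1.13 (day 6), 93.95 ± 0.52 (day 9), 95.00 ± 0.64 (day 12) and 95.65 ± 0.51 (day 15). The median rank of the members was thus lowest on day 3 and above that of MEFs from day 9 on. On day 3, 35 of 43 members ranked below MEFs in all library pairs (29.8% of all genes did) and 3 above (26.6% of all genes). On day 15, 36 ranked above MEFs (38.2% of all genes) and 4 below, namely *Col4a1*, *Tnc*, *Vcan* and *Pdgfra* (45.5% of all genes). No test was made across tables. MEFs share a table only with day 3, so that for every later day, day and table cannot be told apart in ranks set against MEFs.

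Ranks by role are given as a description, since day 3 and day 6 lie in different tables. Surface proteins had a median percentile of 88.9 in MEFs, and in Control OE of 22.2 (day 3), 47.0 (day 6), 83.4 (day 9) and 84.4 (day 15), a median below that of MEFs on every day. By gene, *Thy1* (95.0 in MEFs, 97.3 on day 15) and *Pdgfrb* (68.6 and 74.8) ranked above MEFs on day 15. *Pdgfra* (88.9 and 84.4) ranked below. Matrix glycoproteins had a median of 98.8 in MEFs, 92.5 on day 3 and 97.4 on day 15, also below the MEF median. By gene, *Fn1*, *Sparc*, *Postn* and *Thbs2* ranked above MEFs on day 15 in all library pairs. *Tnc* ranked below (99.6 in MEFs, 94.6 on day 15), and *Thbs1* stood at 99.0 and 98.9. Fibrillar collagens stood at 92.5 in MEFs, at 81.9 on day 3 and already at 96.1 on day 6. Proteoglycans went from 82.8 in MEFs to 51.1 on day 3, 72.7 on day 6 and 90.6 on day 9. The elastic fibre genes had a median of 57.4 in MEFs and of 91.6 on day 15.

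The largest gains in rank between MEFs and day 15 belonged to genes that were near the bottom of the MEF libraries. *Eln*, which encodes elastin, ranked at percentile 14.0 in MEFs, 7.5 on day 3 and 94.4 on day 15. *Col14a1*, a fibril-associated collagen, went from 8.9 to 3.1 and then to 76.0, and *Ogn*, the small proteoglycan osteoglycin, from 20.5 to 16.8 and 86.5. *Efemp1* went from 58.4 to 94.0 on day 3 and 98.0 on day 15. *Vcan*, the large proteoglycan versican, had the largest loss, from 96.6 in MEFs to 87.6 on day 15.

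**Figure D3:**
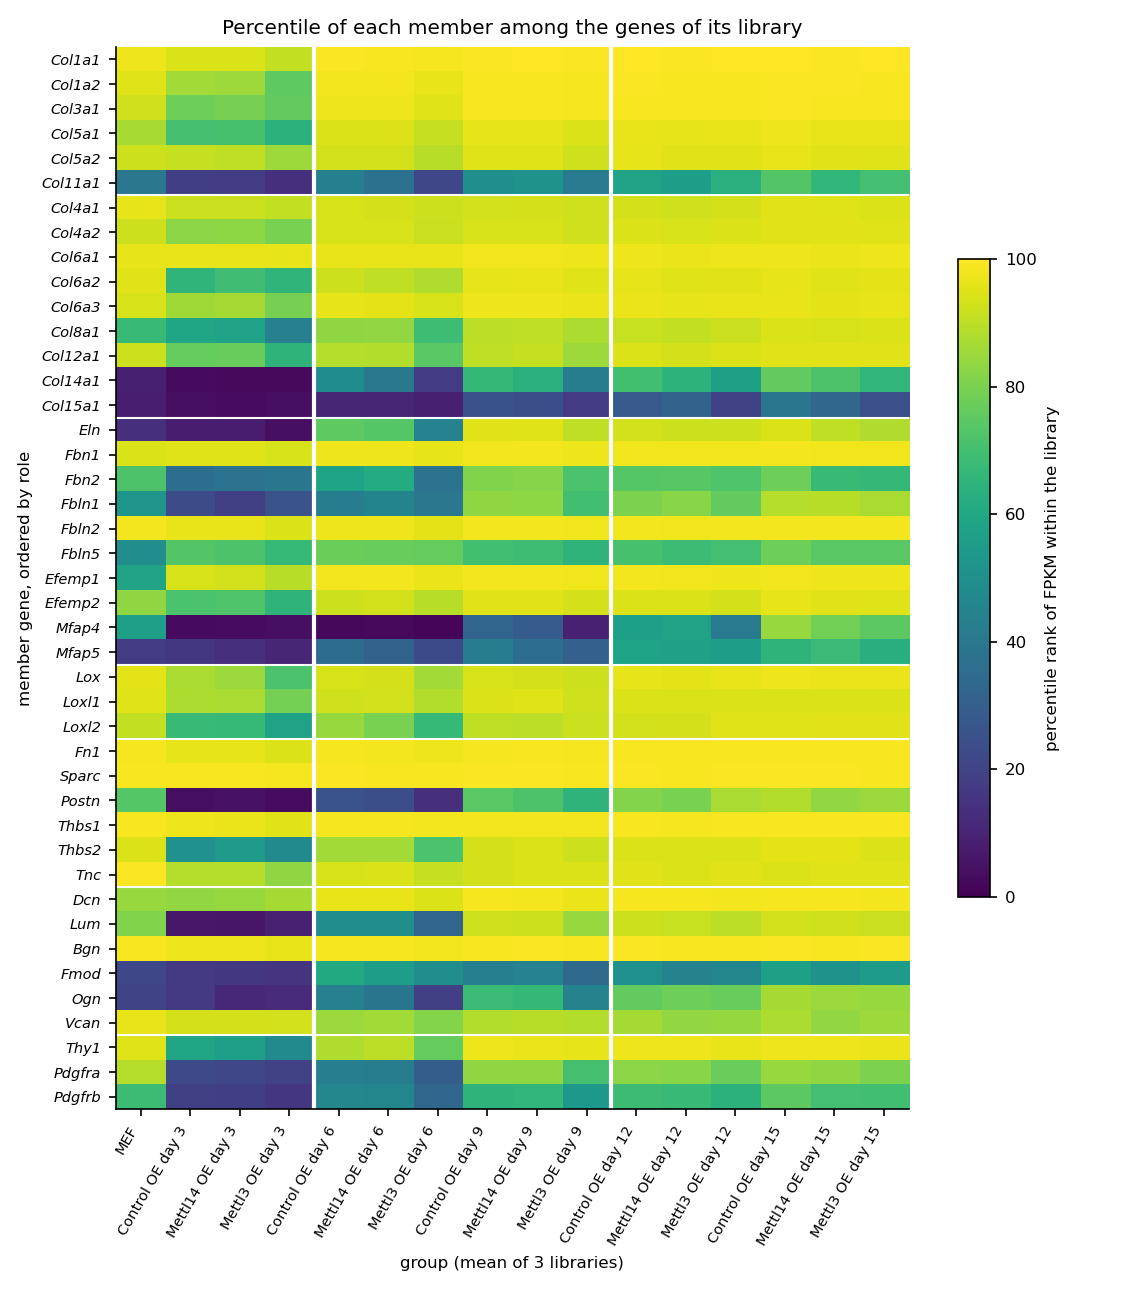
Percentile rank of each of the 43 members (vertical axis, ordered by role, with white lines between roles) within the library, as the mean of 3 libraries for each of the 16 groups (horizontal axis); white vertical lines separate the 3 tables. In Control OE most members drop on day 3, while *Col6a1*, *Fbln5*, *Efemp1* and, slightly, *Fbn1* (95.0 against 94.4) stand higher there than in MEFs. On day 6 of Control OE *Pdgfra* (42.8) and *Pdgfrb* (46.2) remain low, and *Thy1* stands at 88.2.

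Ratios of 2 members within a library are free of the scale of the table. Chains that assemble into the same trimer did not keep their ratio. *Col6a1* stood at 1.17 ± 0.0506 (SD, n = 3) times *Col6a2* in MEFs, at 10.6 ± 1.48 times on day 3 of Control OE, at 2.32 on day 6 and at 1.57 on day 15. *Col5a1* stood at 0.613 times *Col5a2* in MEFs, 0.294 times on day 3 and 1.24 times on day 6. The ratio of *Col1a1* to *Col1a2* moved less, with group means of 1.99 in MEFs, 2.42 on day 3, 2.50 on day 6 and 1.88 on day 15 of Control OE; the OSKM cassette sits at *Col1a1*. *Col4a1* over *Col4a2* was 2.11 in MEFs and 2.03 on day 3, and 0.968 on day 6 and 0.954 on day 15 of Control OE. Shifts of all ratios given here between day 3 and day 6 fall between 2 tables, so that day and table cannot be told apart. *Tnc* went from 2.93 times *Fn1* in MEFs to 0.354 times on day 3 and 0.127 times on day 15. *Pdgfra* went from 2.95 times its sister receptor *Pdgfrb* to 1.24 times on day 3 and 0.888 times on day 6, and stood at 2.12 times on day 9.

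The comparison of *Mettl3* OE with Control OE within each day asked how these genes differed when the catalytic subunit of the writer complex was overexpressed. Members were lower in *Mettl3* OE on days 3, 6 and 9, and none was called higher on any day. On day 3, 11 of 30 members tested were called lower, where 1.09% of all genes were; the median log2 difference was -0.49 against -0.02 over all genes, and 28 of 30 were negative. On day 6, 15 of 42 were called lower (0.797% of all genes), with a median of -0.71 against -0.02, and all 42 were negative. On day 9, 9 of 43 were called lower (1.48% of all genes; median -0.33 against 0.03). On day 12, none of 43 was called by limma in either direction (1.38% of all genes); 9 members and 2955 genes had an unadjusted p under 0.05, and the median was -0.01. On day 15, 5 of 43 were called lower (1.48% of all genes; median -0.22 against -0.08). In all, 29 members were called lower on at least 1 day, where 3.55% of the 12576 genes tested on any day were. The 14 that were not, with all libraries in the fits, comprised the collagen IV and VI chains, *Fbln5*, *Efemp2*, *Postn*, *Tnc*, *Bgn*, *Fmod*, *Vcan*, *Thy1* and *Pdgfrb*. Of these, *Col6a2*, *Col6a3*, *Tnc*, *Bgn*, *Thy1* and *Pdgfrb* were called lower on day 6 without the libraries numbered 1.

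**Figure D4:**
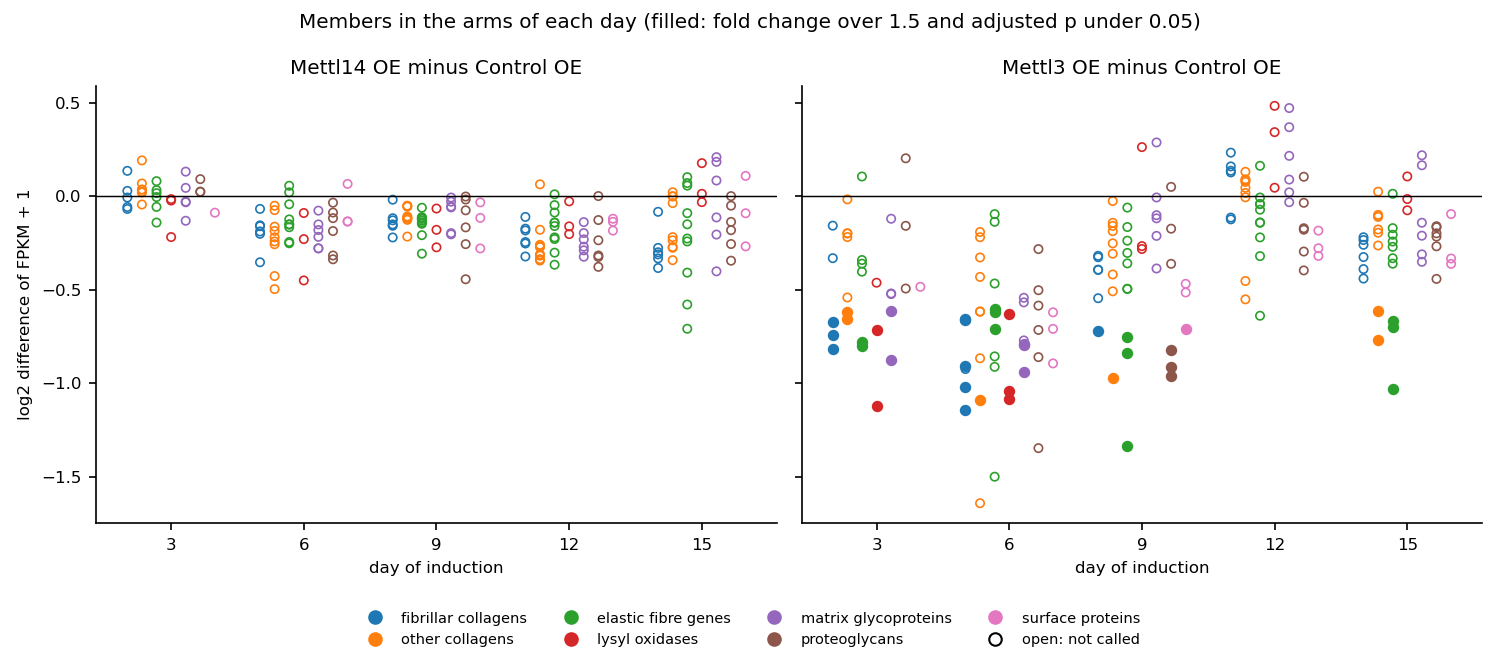
Log2 difference of FPKM + 1 (vertical axis) between *Mettl14* OE (left) or *Mettl3* OE (right) and Control OE for each member tested, by day of induction and coloured by role; filled points are called and open points are not. No member is filled on the left; on the right 11, 15, 9, 0 and 5 members are filled on days 3, 6, 9, 12 and 15.

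On day 3 the called members were *Lox* (log2 difference -1.12), *Thbs1* (-0.87), *Col1a2* (-0.82), *Efemp1* (-0.80), *Fbln2* (-0.78), *Col1a1* (-0.74), *Loxl1* (-0.72), *Col5a2* (-0.67), *Col8a1* (-0.66), *Col12a1* (-0.62) and *Sparc* (-0.61). *Lox*, which cross-links collagen and elastin, lay at 14.5, 17.5 and 18.5 FPKM in the Control OE libraries and at 7.88, 6.34 and 7.28 FPKM in *Mettl3* OE (SE 0.099, limma adjusted p = 0.000127). *Thbs1*, thrombospondin 1, lay at 69.8, 71.7 and 79.4 FPKM in Control OE and at 43.2, 38.1 and 37.9 FPKM in *Mettl3* OE. The 2 groups of libraries did not overlap in either gene. *Col1a1* and *Col1a2*, the chains of collagen I, had adjusted p = 0.000244 and 0.000176. By role, 3 of 5 fibrillar collagens tested, 2 of 3 lysyl oxidases, 2 of 7 other collagens, 2 of 6 elastic fibre genes and 2 of 5 glycoproteins were called, and none of 3 proteoglycans.

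On day 6 the 8 largest called differences were *Col11a1* (-1.14), *Col12a1* (-1.09), *Lox* (-1.09), *Loxl2* (-1.04), *Col1a2* (-1.02), *Thbs2* (-0.94), *Col1a1* (-0.91) and *Fn1* (-0.79). *Lox* lay at 64.7, 64.7 and 65.9 FPKM in Control OE and at 37.2, 28.5 and 25.8 FPKM in *Mettl3* OE (SE 0.116, limma adjusted p = 0.00378). *Loxl2*, a lysyl oxidase that acts on collagen IV, lay at 29.97, 25.7 and 26.96 FPKM and at 15.3, 11.8 and 11.7 FPKM (adjusted p = 0.00355). *Col11a1*, a minor chain that joins collagen II or V fibrils, lay at 5.90, 6.97 and 4.59 FPKM and at 2.86, 1.68 and 1.75 FPKM (adjusted p = 0.0149). All 3 *Mettl3* OE libraries were below all 3 Control OE libraries in these genes. Called in addition were *Thbs1*, *Mfap5*, *Col5a1*, *Col5a2*, *Loxl1*, *Fbln2* and *Fbn1*, between -0.60 and -0.79. All 3 lysyl oxidases and 5 of 6 fibrillar collagens were called, as were 3 of 6 glycoproteins, 3 of 9 elastic fibre genes and 1 of 9 other collagens. Of 6 proteoglycans and 3 surface proteins none was called.

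The day 6 count depended on the libraries numbered 1. Without these 3 libraries 31 of 41 members tested were called lower, where 2.46% of all genes were. All 15 above were among them, and the other 16 were *Dcn*, *Lum*, *Ogn*, *Bgn*, *Eln*, *Fbn2*, *Efemp1*, *Col3a1*, *Col6a2*, *Col6a3*, *Col8a1*, *Col14a1*, *Tnc* and all 3 surface proteins. With all 9 libraries *Col14a1* had the lowest point estimate of the day (-1.64, SE 0.509, adjusted p = 0.115). Its values were 11.9, 6.10 and 4.65 FPKM in Control OE and 3.63, 0.79 and 1.05 FPKM in *Mettl3* OE, so that library 1 was the highest of each group. The count fell to 2 without *Mettl3* OE library 2 or 3, to 4 without Control OE library 2 or 3, and rose to 27 without *Mettl3* OE library 1. The shares of all genes in these fits are not given here.

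On day 9 the called members were *Mfap4* (-1.34), *Col14a1* (-0.97), *Ogn* (-0.96), *Lum* (-0.92), *Eln* (-0.84), *Dcn* (-0.82), *Fbln1* (-0.75), *Col3a1* (-0.72) and *Pdgfra* (-0.71). *Dcn*, the proteoglycan decorin, lay at 234, 210.3 and 247 FPKM in Control OE and at 128, 127 and 134 FPKM in *Mettl3* OE (SE 0.104, limma adjusted p = 0.00107). *Col14a1* lay at 10.9, 11.7 and 13.9 FPKM and at 5.84, 5.56 and 5.66 FPKM (adjusted p = 0.000228). *Col3a1*, the single chain of collagen III, lay at 427, 449 and 513 FPKM and at 262, 274 and 304 FPKM (adjusted p = 0.00811). Groups did not overlap in these 3 genes. No gene was called on both day 6 and day 9 with all libraries, and 7 of the 9 (not *Fbln1* and *Mfap4*) were among the 31 called on day 6 without the libraries numbered 1. By contrast 8 genes were called on both day 3 and day 6: *Col1a1*, *Col1a2*, *Col5a2*, *Col12a1*, *Fbln2*, *Lox*, *Loxl1* and *Thbs1*. *Lox* itself differed by -0.27 on day 9 (adjusted p = 0.217).

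On day 15 the called members were *Eln* (-1.03, SE 0.198, limma adjusted p = 0.0119), *Col15a1* (-0.77), *Mfap4* (-0.70), *Fbn2* (-0.67) and *Col14a1* (-0.61). *Eln* lay at 61.1, 54.4 and 90.6 FPKM in Control OE and at 35.2, 32.5 and 29.4 FPKM in *Mettl3* OE, with no overlap. *Eln*, *Mfap4* and *Col14a1* had also been called on day 9. *Loxl2* on day 12 (0.49, adjusted p = 0.0411) passed the adjusted p without reaching the fold change, in the higher direction. On that day 1 other member did so in the lower direction.

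Sums of marker lists named for other cell types differed between *Mettl3* OE and Control OE on some days. On day 6, 8 of 18 epithelial markers tested were called higher in *Mettl3* OE, with a sum of the 20 markers of 449 to 546 FPKM in Control OE and 639 to 888 FPKM in *Mettl3* OE. On day 9, 10 of 19 were called higher (773 to 931 against 1190 to 1260 FPKM). On day 3 none of 5 tested was called, with sums of 82.9 to 101 and 71.9 to 92.8 FPKM. Of smooth muscle and pericyte markers, 2 of 4 were called lower on day 3 (*Tagln* -1.42 and *Acta2* -1.37, sums of 99.7 to 105 against 39.1 to 48.8 FPKM), 4 of 7 on day 6 (270 to 305 against 133 to 177 FPKM) none of 7 on day 9 (123 to 139 against 120 to 151 FPKM), 2 of 7 on day 12 (median -0.33) and 3 of 9 on day 15 (median -0.48). Members and these markers were thus both called lower on days 3, 6 and 15, members alone on day 9 and these markers alone on day 12. Of 12 pluripotency markers, 7 were high enough to test on day 15 and all 7 were called lower in *Mettl3* OE (33.7 to 44.4 against 9.34 to 13.8 FPKM). On that day 10 of the 12 had a mean under 1 FPKM in *Mettl3* OE, against 3 in Control OE and 6 in *Mettl14* OE. The markers tested thus entered mainly through the other arms, and the filter favoured this direction. The smooth muscle and pericyte sum was 203 to 217 FPKM in the starting MEFs, so it does not by itself mark a separate cell population. The part of cell composition in the members' differences was not tested.

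Genes that act with the members were counted from lists. TGF-beta and matrix-stored growth factor genes were called lower for 3 of 17 on day 3, among them *Ctgf* (-0.73) and *Cyr61* (-0.67). On days 6 and 9, 2 of 18 were, among them *Tgfbi* (-1.24 and -0.83), which encodes a collagen-binding protein induced by TGF-beta. On day 12, 2 of 18 were called higher and 1 lower, and on day 15 none was called. Of collagen processing and secretion genes none of 20 was called on day 3 or day 6, with medians of -0.20 and -0.34, and 1 was lower on each of days 9, 12 and 15. That gene was *Adamts2*, a procollagen N-peptidase, on all 3 days (-0.86, -0.60 and -0.63). Of matrix receptors only *Itga3* on day 3 (-0.74) was called over the 5 days. Of basement membrane genes 1 of 15 was called higher on day 6, 3 of 15 were higher on day 9, 1 was higher and 1 lower on day 12, and 2 of 16 were lower on day 15.

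*Mettl14* OE was compared with Control OE in the same way. No member was called on any of the 5 days, among 30, 42, 43, 43 and 43 tested by limma on days 3, 6, 9, 12 and 15. Of all genes 0.0203%, 0.00866%, 0.017%, 0.0168% and 0.222% were called in either direction, so that few calls were made anywhere. Members with an unadjusted p under 0.05 numbered 1, 3, 4, 9 and 16, among 337, 825, 729, 2921 and 2059 genes. The median log2 difference was 0.02, -0.16, -0.12, -0.22 and -0.15, against 0.01, -0.11, -0.06, -0.12 and -0.04 over all genes, so the median of all genes tested was negative as well from day 6 on. Negative differences were found in 14 of 30, 39 of 42, 43 of 43, 40 of 43 and 31 of 43 members. On day 15 *Fbn2*, fibrillin 2, had an adjusted p of 0.0472 at a log2 difference of -0.58, short of the fold change, and *Eln* lay at -0.71 with an adjusted p of 0.136. *Fbn2* stood at 15.5, 17.4 and 23.5 FPKM in Control OE and at 12.2, 11.02 and 13.1 FPKM in *Mettl14* OE, and the groups did not overlap.

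*Mettl14* OE and *Mettl3* OE were also compared directly; these comparisons share the *Mettl3* OE libraries with those above. On day 3, 11 of 30 members were higher in *Mettl14* OE (0.892% of all genes), led by *Lox* (0.91), *Fbln2* (0.78), *Col1a2* (0.76), *Thbs1* (0.74) and *Col1a1* (0.74). On day 6, 6 of 42 were (0.338% of all genes): *Col1a2* (0.87), *Lox* (0.86), *Col11a1* (0.79), *Thbs2* (0.79), *Col1a1* (0.71) and *Loxl2* (0.59). Without the libraries numbered 1 the day 6 count was 20 (1.32% of all genes). On day 9, 6 of 43 were higher in *Mettl14* OE (0.823% of all genes): *Mfap4* (1.13), *Ogn* (0.79), *Col14a1* (0.76), *Lum* (0.66), *Fbln1* (0.63) and *Pdgfra* (0.60). On day 12 *Thbs1* alone was called, lower in *Mettl14* OE (-0.69, limma adjusted p = 0.0236; 0.695% of all genes were lower). On day 15 limma called no member (0.272% of all genes in either direction), and 9 members and 1289 genes had an unadjusted p under 0.05. The day 9 count was 2 without *Mettl3* OE library 2, and the day 6 count was 0 without *Mettl3* OE library 2 or 3.

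**Figure D5:**
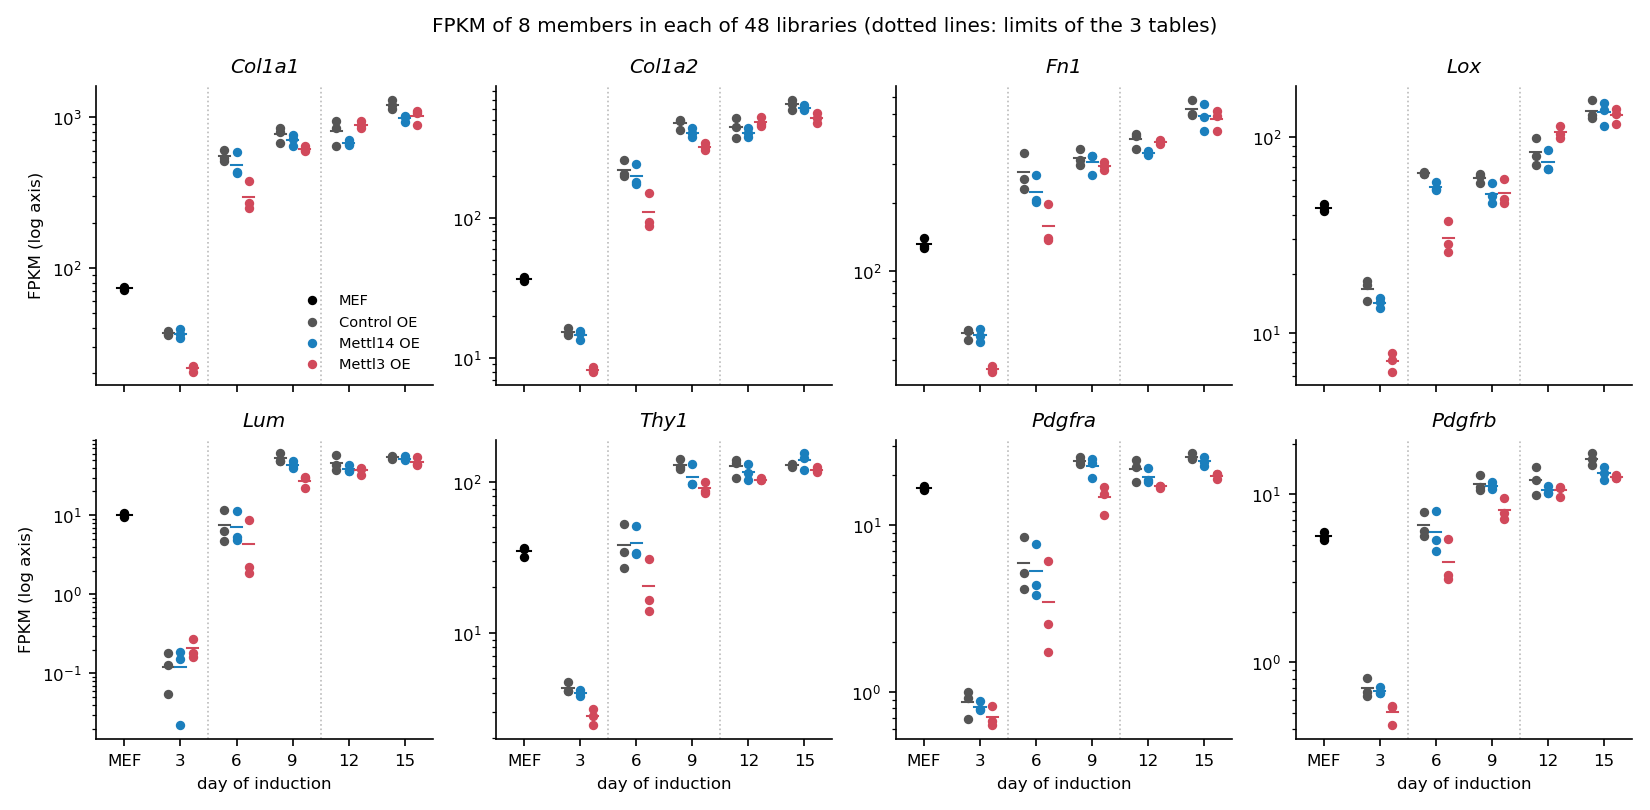
FPKM (vertical axis, log scale) of *Col1a1*, *Col1a2*, *Fn1*, *Lox*, *Lum*, *Thy1*, *Pdgfra* and *Pdgfrb* in each of the 48 libraries by day of induction; points are libraries, bars are group means and dotted lines separate the 3 tables. On day 3 the *Mettl3* OE libraries of *Col1a1* (20.5 to 22.5 FPKM) lie below those of Control OE (36.0 to 37.9 FPKM).

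Collagen I is the most abundant collagen of this table from day 6 on, and its values were as follows. *Col1a1* lay at 73.9, 71.3 and 74.5 FPKM in MEFs. On day 3 it lay at 37.9, 36.01 and 36.4 FPKM in Control OE, at 39.3, 36.2 and 34.5 in *Mettl14* OE and at 22.5, 21.9 and 20.5 in *Mettl3* OE. On day 6 the values were 607, 536 and 511 FPKM, 588, 429 and 434 FPKM and 375, 268 and 248 FPKM in the same order of arms. On these 2 days each *Mettl3* OE library was below each library of the other arms. On day 9 they were 677, 796 and 853, 718, 759 and 647 and 601, 599.6 and 647 FPKM. On day 12 they were 937, 642 and 842, 659, 706 and 653 and 849, 885 and 941 FPKM, and on day 15 1123, 1205 and 1306, 997, 1021 and 933 and 1097, 1065 and 884 FPKM. The difference between *Mettl3* OE and Control OE was not called on days 9 to 15.

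*Col1a2*, the partner chain, lay at 37.2, 35.3 and 37.9 FPKM in MEFs and on day 3 at 14.5, 16.3 and 14.97 FPKM in Control OE, 15.5, 15.1 and 13.4 in *Mettl14* OE and 8.59, 8.11 and 7.98 in *Mettl3* OE. On day 6 it lay at 257, 207 and 200.0, 244, 174 and 182 and 151, 93.96 and 87.96 FPKM in these arms. On day 9 the values were 424, 490.2 and 504, 438, 402 and 375 and 322, 304 and 343 FPKM. *Mettl3* OE libraries were the lowest on each of these days, with a log2 difference from Control OE on day 9 of -0.54 (SE 0.13, limma adjusted p = 0.0245) that passed the adjusted p and not the fold change. On day 12 *Col1a2* lay at 513, 369.9 and 443, 378, 436 and 407 and 467, 451 and 522 FPKM, and on day 15 at 594, 646 and 699, 598, 643 and 588 and 556, 516 and 475 FPKM.

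*Fn1*, which encodes fibronectin, the scaffold on which cells assemble collagen, lay at 127, 129.5 and 139.5 FPKM in MEFs. On day 3 it lay at 54.4, 49.3 and 54.01 FPKM in Control OE, 51.4, 55.3 and 47.97 in *Mettl14* OE and 36.03, 37.5 and 35.5 in *Mettl3* OE, and on day 6 at 335, 258 and 232, 268, 204 and 207 and 198, 137 and 141 FPKM. The 3 *Mettl3* OE libraries were the lowest on both days. On day 9 the values were 296, 311 and 349.8, 326, 327 and 268 and 281, 293 and 307 FPKM. On day 12 they were 408, 351 and 400.2, 343, 329 and 337 and 381, 383 and 369 FPKM, and on day 15 501, 499 and 581, 558, 488 and 422 and 493, 519 and 423 FPKM. From day 9 on the *Fn1* libraries of Control OE and *Mettl3* OE overlapped.

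*Thy1*, a glycolipid-anchored surface protein used to sort fibroblasts, lay at 36.6, 31.8 and 35.6 FPKM in MEFs and on day 3 at 4.10, 4.08 and 4.71 FPKM in Control OE, 4.19, 3.98 and 3.78 in *Mettl14* OE and 3.13, 2.82 and 2.43 in *Mettl3* OE. On day 6 the values were 52.2, 26.97 and 34.5, 50.6, 33.1 and 33.5 and 30.6, 16.4 and 14 FPKM. Library 1 was the highest in each arm on day 6. On day 9 *Thy1* lay at 121, 141 and 126, 95.8, 130.3 and 96.01 and 86.9, 84.4 and 99.7 FPKM, with a log2 difference of *Mettl3* OE from Control OE of -0.51 (limma adjusted p = 0.0347), short of the fold change. On day 12 it lay at 139, 106 and 134, 102, 131 and 114 and 102, 105 and 102 FPKM, and on day 15 at 124, 132 and 129, 154, 144 and 119 and 116, 126 and 119 FPKM. The arms overlapped on day 15.

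*Pdgfra* lay at 16.5, 16.2 and 17.3 FPKM in MEFs and under 1 FPKM in every day 3 library, with 0.995, 0.915 and 0.691 in Control OE, 0.882, 0.784 and 0.788 in *Mettl14* OE and 0.63, 0.821 and 0.673 in *Mettl3* OE. On day 6 it lay at 8.52, 5.15 and 4.13, 7.73, 4.41 and 3.81 and 6.07, 2.57 and 1.73 FPKM, and on day 9 at 23.1, 24.4 and 25.6, 25.01, 23.6 and 19.1 and 15.5, 11.5 and 17.04 FPKM. The *Mettl3* OE libraries of day 9 were all below those of the other arms. On day 12 the values were 24.6, 18.3 and 22.2, 18.04, 21.9 and 18.8 and 17.2, 17.2 and 16.8 FPKM, and on day 15 25.2, 24.97 and 26.99, 23.8, 25.8 and 22.8 and 20.2, 18.8 and 20.4 FPKM. *Pdgfrb*, the second receptor of the pair, lay at 5.60, 5.36 and 5.99 FPKM in MEFs and on day 3 at 0.802, 0.661 and 0.633 in Control OE, 0.659, 0.652 and 0.708 in *Mettl14* OE and 0.42, 0.543 and 0.546 in *Mettl3* OE. Both receptors were too low on day 3 for the comparison of arms. On days 6 and 9 *Pdgfrb* lay at 7.83, 6.07 and 5.67 and at 10.7, 11.04 and 12.99 FPKM in Control OE, at 7.91, 4.57 and 5.34 and at 11.2, 11.9 and 10.7 in *Mettl14* OE, and at 5.43, 3.15 and 3.30 and at 7.16, 7.68 and 9.48 in *Mettl3* OE. On days 12 and 15 it lay at 14.6, 9.91 and 12.1 and at 16.2, 14.9 and 17.5 FPKM in Control OE, at 10.2, 11.2 and 10.1 and at 13.3, 14.5 and 12.1 in *Mettl14* OE, and at 9.62, 10.9 and 11.1 and at 12.9, 12.5 and 12.5 in *Mettl3* OE. With all libraries *Pdgfrb* was not called between arms on any day, and without the day 6 libraries numbered 1 it was called lower in *Mettl3* OE than in Control OE on day 6 (log2 difference -0.70, limma adjusted p = 0.00225).

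Steps between days were tested within a table. From day 6 to day 9, 17 of 43 members rose in Control OE (6.31% of all genes rose), 21 in *Mettl14* OE (6.6%) and 29 in *Mettl3* OE (8.97%). The median log2 changes were 0.48, 0.56 and 0.90, against -0.08, -0.05 and -0.03 over all genes. In Control OE the largest were *Lum* (2.71), *Postn* (2.18), *Mfap4* (2.05), *Eln* (1.96), *Fbln1* (1.94), *Pdgfra* (1.92), *Thy1* (1.79) and *Col3a1* (1.58). *Mfap4* lay at 0.321 FPKM or less in every day 6 library and entered this fit only through day 9, where it was higher. The filter thus favoured its rise, and it is among the 43 members and in the medians. *Postn*, the matricellular protein periostin, went from 4.08, 1.63 and 2.91 FPKM on day 6 to 14.7, 15.7 and 17.6 FPKM on day 9 (SE 0.204, limma adjusted p = 1.91e-06). *Thbs1* (-0.79) and *Fmod* (-0.78) fell in Control OE, where 4.31% of all genes did, and *Fmod* (-0.64) fell in *Mettl3* OE (4.72%). All 3 surface proteins and 4 of 6 proteoglycans rose in each of the 3 arms. Without the day 6 libraries numbered 1, 21 members rose in Control OE (8.6% of all genes), 23 in *Mettl14* OE (7.48%) and 34 in *Mettl3* OE (10.3%). Epithelial markers rose over the same step too, 16 of 19 in Control OE, 17 of 19 in *Mettl14* OE and 14 of 19 in *Mettl3* OE (medians 0.94, 1.03 and 0.82), and their part in the members' changes was not tested. Of the 19, 18 were high enough to test on day 6 alone.

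The step from day 6 to day 9 was larger in *Mettl3* OE than in Control OE for 2 members by limma's interaction contrast, which called 0.0415% of all genes in that direction. *Loxl2* differed by 1.31 (SE 0.212, adjusted p = 0.0305), with values on day 9 of 33.7, 47.1 and 41.6 FPKM in Control OE and 43.6, 48.4 and 54.9 FPKM in *Mettl3* OE beside the day 6 values given above. *Tnc* differed by 0.86 (SE 0.149, adjusted p = 0.0421): it lay at 59.7, 68.3 and 71.3 FPKM on day 6 and 50.96, 66.1 and 57.2 FPKM on day 9 in Control OE, and at 50.6, 44.1 and 39.2 and 65.9, 73.5 and 73.3 FPKM in *Mettl3* OE. In both genes *Mettl3* OE was the lower arm on day 6 and was not lower in its mean on day 9. The median step difference was 0.38 over the members and 0.05 over all genes. Without the day 6 libraries numbered 1, *Col14a1*, *Lox*, *Loxl2*, *Thbs1*, *Thbs2* and *Tnc* were called (0.658% of all genes). The count was 0 when any one of 8 of the 12 libraries was left out (libraries 2 and 3 of either arm on day 6, Control OE libraries 1 and 3 and *Mettl3* OE libraries 2 and 3 on day 9), 1 without Control OE library 1 of day 6 and 5 without *Mettl3* OE library 1 of day 6. For *Mettl14* OE against Control OE limma called no member and no gene, with 0 members and 198 genes at an unadjusted p under 0.05.

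From day 12 to day 15, 8 of 43 members rose in Control OE (2.98% of all genes), 12 in *Mettl14* OE (4.32%) and 2 in *Mettl3* OE (1.26%), with medians of 0.39, 0.48 and 0.19 against 0.09, 0.15 and -0.01 over all genes. *Mfap4* had the largest change in each arm. It lay at 10.2, 7.38 and 7.20 FPKM on day 12 and at 22.5, 28.2 and 27.2 FPKM on day 15 in Control OE (1.55, SE 0.275, limma adjusted p = 0.00241). The other 7 in Control OE were *Ogn* (0.87), *Fbln1* (0.82), *Col11a1* (0.78), *Lox* (0.70), *Col8a1* (0.64), *Col1a1* (0.60) and *Col3a1* (0.60). In *Mettl14* OE, *Mfap4* (1.19) was followed by *Fbln1* (0.88), *Lox* (0.83), *Col8a1* (0.82), *Col4a1* (0.77) and *Loxl2* (0.77), and in *Mettl3* OE only *Mfap4* (1.49) and *Fbln1* (0.84) rose. The order of the arms depended on the scaling: the counts were 4, 2 and 2 under quantile normalization and 5, 6 and 2 under median-ratio scaling. The shares of all genes under these scalings are not given here, so these counts do not show whether the members alone changed. The Control OE count was 16 without day 12 library 1 and 5 without day 12 library 2 or day 15 library 3, and the *Mettl3* OE count was 4 without its day 15 library 3. For no member was the difference of the steps between arms called by limma, with 3 members (*Mettl14* OE against Control OE) and 8 members (*Mettl3* OE against Control OE) at an unadjusted p under 0.05, among 579 and 797 genes. Over the same step macrophage markers rose for 8 of 9 tested in Control OE, 8 of 9 in *Mettl14* OE and 2 of 9 in *Mettl3* OE, with sums on day 15 of 39.4 to 69.3, 45.4 to 90.0 and 25.1 to 30.2 FPKM against 12.7 to 23.3 FPKM in all 9 libraries of day 12. Pluripotency markers rose for 5, 4 and 1 of 8. In the day 12 libraries alone, 5 macrophage and 4 pluripotency markers were high enough to test. The others entered the step only with the day 15 libraries, so that the filter favoured a rise. The part of these markers in the members' changes was not tested.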

How the data were processed

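Per the labels, the authors sequenced poly(A) RNA of the 48 libraries and deposited FPKM values. According to the submitters' processing notes these were made with TopHat2 2.1.1 and Cufflinks 2.2.1 on mm9. The file held 24013 lines and 24012 genes after an exact copy was dropped, with a date in place of the gene name on 27 lines. It holds no counts. Depth was estimated roughly, from the smallest values of 3016 genes with 1 annotated transcript (GENCODE M21, not the authors' annotation), at 12.88 to 35.48 M fragments (median 22.915).

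Groups were taken from the labels. Values were fitted as log2(FPKM + 1) with limma 3.58.1 (trend, robust) in R 4.3.3, two-sided, over the 9 libraries of a day for arms and over the 12 or 18 libraries of a table for steps. The methods read here name no test, and the fold change of 1.5 and the adjusted p of 0.05 are those of the study. The fold change is of FPKM + 1 and understates that of low genes. The models were tested on simulated data. Tables and figures used matplotlib 3.10.9, NumPy 2.4.6 and pandas 2.3.3 under Python 3.11.15.

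Alternatives were a pseudocount of 0.1, no filter or 5 FPKM in 3 libraries, quantile normalization, median-ratio scaling, the replicate number as a block, all 48 libraries in the fit, and each library left out. The 43 members and the lists (collagen processing, matrix receptors, TGF-beta, basement membrane and markers of other cell types) were chosen with earlier results of these data known. Named were *Col1a1*, *Col1a2*, *Fn1*, *Thy1*, *Pdgfra* and *Pdgfrb*, up to 8 called members per direction and comparison (beyond 8 where a full count was listed), and up to 4 genes of a list, some of which are not reported here. Members not called were named after their values were seen, for their role or rank.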

Additional observations from a re-analysis of the deposited data

Results flagged for a closer look

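The step from day 6 to day 9 differed between *Mettl3* OE and Control OE in 2 members, by the test of the difference itself. The difference on the log2(FPKM + 1) scale was 1.31 for *Loxl2* (limma adjusted p = 0.0305) and 0.86 for *Tnc* (adjusted p = 0.0421), with 3 libraries in each of the 4 groups. The range of adjusted p over the alternatives was 0.000123 to 0.145 for *Loxl2* and 0.00549 to 0.148 for *Tnc*, so neither call held throughout.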

How the results depend on the processing

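Over all alternatives other than leaving out a library, 1330 of 1401 values of called members kept their direction and their call, 71 lost the call, and 0 changed direction. With a library left out, 947 of 1128 kept the call and 0 changed direction. The cause of the changes below was not tested.

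The day 6 count for *Mettl3* OE against Control OE, 15 as reported, was 5 with no filter, 30 with all 48 libraries, 31 without the day 6 libraries numbered 1, and 2 to 27 with a library left out. For *Mettl14* OE against *Mettl3* OE on day 6, 6 became 2 with no filter, 10 under quantile normalization and under median-ratio scaling, 18 with all 48 libraries, 20 without the libraries numbered 1, and 0 to 17 with a library left out. On day 9, 6 became 11 under quantile normalization and 2 to 8 with a library left out. On day 12, 1 became 0 with no filter and under both scalings, 3 with all 48 libraries, and 0 to 4 with a library left out. For *Mettl3* OE against Control OE, the day 12 count of 0 became 1 at a pseudocount of 0.1 and with all 48 libraries (0 to 1 with a library left out), and the day 15 count of 5 became 3 under median-ratio scaling (3 to 5). For *Mettl14* OE against Control OE the day 15 count of 0 became 1 at a pseudocount of 0.1 (0 to 1).

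The 2 step differences of *Mettl3* OE from day 6 to 9 became 1 with no filter and under quantile normalization, 7 with all 48 libraries, 6 without the libraries numbered 1, and 0 to 5 with a library left out. From day 12 to 15, 8 in Control OE became 4 under quantile and 5 under median-ratio scaling (5 to 16 with a library left out), 12 in *Mettl14* OE became 2 and 6 (11 to 17), and 2 in *Mettl3* OE became 2 to 4. Ranked among 7952 genes with at least 1 FPKM in every library, which holds 30 of the members, the median member stood at 92.26 in MEFs, 79.93 on day 3 and 94.62 on day 9. With a library left out, other counts ran from 9 to 12 (*Mettl3* OE, day 3), 7 to 9 (day 9), 24 to 31 (MEF to day 3), and 18 to 23, 15 to 24 and 28 to 34 (day 6 to 9 in Control OE, *Mettl14* OE and *Mettl3* OE).

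Replicate numbers did not pair the samples: deviations of libraries with the same number correlated at -0.301 to 0.341 (median -0.048) over 45 pairs, and 11 of 45 were highest with their own number. On day 6 the libraries numbered 1 correlated at 0.341, 0.167 and 0.203 between arms, those numbered 2 at -0.089 to 0.131 and those numbered 3 at -0.101 to 0.005. With the number as a replicate block, 30 members were called on day 6 for *Mettl3* OE against Control OE, 18 for *Mettl14* OE against *Mettl3* OE, and 0 step differences; no other count moved by over 1.5 times.

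The deposited values carry no counts, so counting error of low members such as *Mfap4* and *Col15a1* could not be given, and differences within the spread of 3 libraries were not detectable.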
